A study of Mus musculus with 3 samples.

Results

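Thyroid hormone receptors alpha (TRα) and beta (TRβ) shared 265 autosomal sites in mouse neural progenitor lines at which no peak of their partner, the retinoid X receptor (RXR), had been called. The sites are the TRα peaks on chromosomes 1 to 19 that share at least 1 bp with a TRβ peak and no base with any RXR peak. They were 265 of 6902 autosomal TRα peaks (3.84%), and of 7174 TRα peaks in all. The sites were thus chosen by the overlaps of the 3 peak lists in these same libraries, and how often the lists met is given below as a description, without a test.

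The sites come from C17.2 cells, an immortalized mouse neural progenitor line. Line C17.2a stably expressed tagged TRα and line C17.2b tagged TRβ, each with a protein G tag that was captured on IgG magnetic beads (ChAP-seq). RXR was precipitated from C17.2a only, by ChIP-seq with a pan-RXR antibody on protein A beads, so RXR occupancy in the TRβ line was not analysed here. All cells were untreated and had been held in serum-free medium, and the labels do not say whether a line was a single clone. Total tags were 20259748 for TRα, 19842907 for TRβ and 16654006 for RXR, and unique tags fell furthest below them for TRβ. There was 1 library per group, with 19786966 unique tags for TRα, 16556350 for TRβ and 16033622 for RXR. Receptor, line and library therefore cannot be told apart between TRα and TRβ, no difference between libraries had a replicate check, and intervals below are exact 95% binomial or binomial order-statistic intervals that cover counting error only. Tags average over cells, so strong binding in few cells and weak binding in many cannot be told apart.

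TRs are ligand-regulated transcription factors that stay on DNA without hormone, where they recruit corepressors such as NCoR and SMRT, and exchange them for coactivators once hormone binds. On response elements built from paired copies of a core motif they bind mostly as a heterodimer with RXR, which raises their affinity for DNA. TRs can also bind DNA as monomers and homodimers in vitro. TRα is the main receptor of the developing brain, and TRβ is more restricted among neural cells.

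Both receptors met RXR at most of their common sites, and the sites without RXR were the minority. Of the 6902 autosomal TRα peaks, 22.1% met a TRβ peak and 47.0% met an RXR peak. Of the 1526 that met TRβ, 1261 also met RXR and 265 did not, a share without RXR of 17.4% (15.5 to 19.4). Seen from the other side, 265 of the 3657 TRα peaks without RXR met TRβ (7.25%, 6.43 to 8.13), against 1261 of 3245 with RXR (38.9%, 37.2 to 40.6). The 265 sites held 280 distinct TRβ peaks, 2.96% of the 9460 autosomal ones. A single TRβ peak lay at 253 of the sites, 2 lay at 9 sites and 3 at 3 sites.

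The count of sites rests on the calling limits of all 3 lists. Where both the TRα and the TRβ peak needed a score of at least 50, 116 sites were left, 11.1% of the TRα peaks that then met TRβ. Scores express the authors' p-value as minus 10 times its log10, and the lists begin at a score of 40. Where only RXR peaks with a score of at least 50 counted as RXR, there were 382 sites, 25.03% of the TRα peaks that met TRβ. The lists give no RXR tags outside RXR peaks, so RXR signal under the limit at these sites is unknown here.

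The sites were mid-ranking TRα peaks. Their TRα scores had a median rank percentile of 50.4 (46.8 to 53.7) in the TRα list, where 100 would be the best peak. The 1261 sites of all 3 factors had a median percentile of 85.2, the 1984 sites of TRα and RXR without TRβ 65.5, and the 3392 peaks of TRα alone 29.2. A TRα score under 50 was found at 99 of the 265 sites (37.4%), where 43.3% of all autosomal TRα peaks fell under it. A score of at least 100 was found at 19 sites (7.17%). That share was 54.8% at sites of all 3 factors, 19.8% at TRα with RXR and 0.825% at TRα alone. In the TRβ list the same sites stood higher, with a median percentile of 76.2 (72.7 to 79.4) against 86.9 for sites of all 3 factors. The TRβ peak had the better percentile of the pair at 204 of 265 sites without RXR (77.0%, 71.4 to 81.9) and at 613 of 1261 sites with RXR (48.6%, 45.8 to 51.4). The TRβ list is longer and holds more peaks near its limit, and that bears on percentiles in both classes.

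The share without RXR fell with the TRα score. Of TRα peaks that met TRβ, 32 of 58 in the lowest 20% of the TRα list by score lacked RXR (55.2%, 41.5 to 68.3). The next 20% gave 55.8%, the middle 20% 41.5% and the fourth 19.03%. In the highest 20% it was 27 of 817 (3.30%, 2.19 to 4.77). All TRα peaks, whether or not they met TRβ, lacked RXR in 87.6, 79.9, 61.7, 30.0 and 5.79% of cases in the same order. In each band a TRα peak that met TRβ thus lacked RXR less often than TRα peaks as a whole. In the highest band the 2 intervals were 2.19 to 4.77 and 4.62 to 7.16. All TRα peaks include those that met TRβ, 817 of 1381 in the highest band. The 2 intervals are therefore not independent, and their overlap does not show whether peaks with and without TRβ differed. Graded by the score of the TRβ peak, the share was 27.4, 29.4, 24.8, 23.0 and 13.2% from the lowest to the highest 20% of the TRβ list. The bands of the 2 lists are not alike. The lowest 4 span scores of 40.01 to 55.9 for TRβ and 40 to 89.88 for TRα. The highest TRβ band held 986 of the TRα peaks that met TRβ. The 2 slopes therefore do not compare equal ranges of strength.

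**Figure D1:**
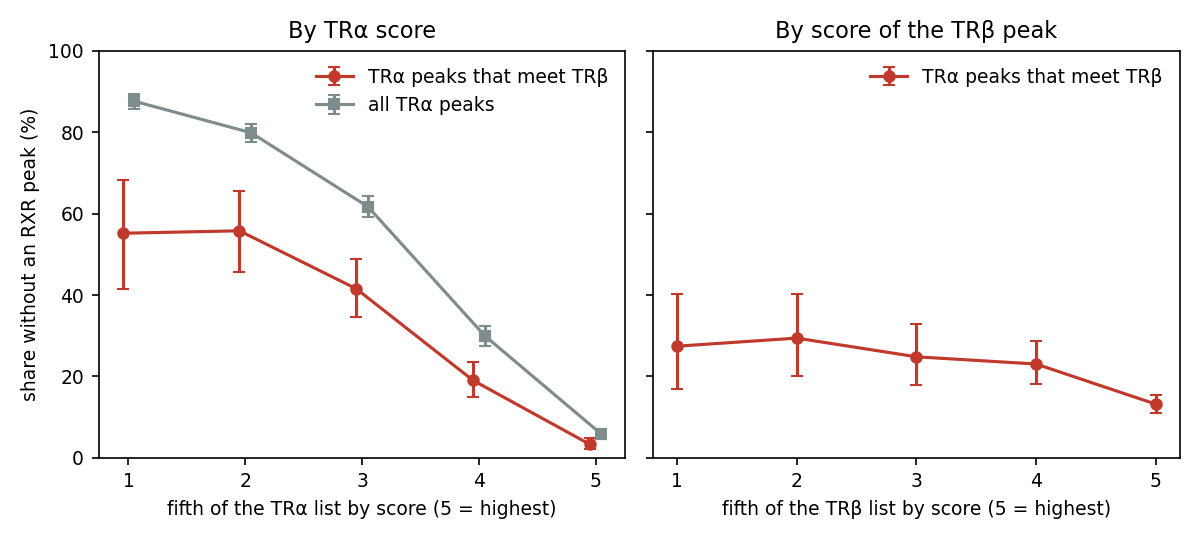
Share of TRα peaks without an RXR peak (y axis, %) by 20% band of score (x axis, 5 = highest), for TRα peaks that meet TRβ (circles) and all TRα peaks (squares), with exact 95% binomial intervals. Among peaks that meet TRβ it falls from 55.2% to 3.30% along the TRα score and from 27.4% to 13.2% along the TRβ score.

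RXR peaks at sites of all 3 factors stood closer to their own limit in the lower bands than in the highest. In the lowest 20% of the TRα list, 26 sites carried all 3 factors, with a median RXR score of 56.6, and 10 of their RXR peaks (38.5%, 20.2 to 59.4) scored under 50. The share under 50 was 19.6% (9.36 to 33.9), 27.2% (19.3 to 36.3) and 14.04% (10.2 to 18.6) in the second to the fourth band, with no even decline. In the highest 20%, the 790 sites of all 3 factors had a median RXR score of 114.5, and 27 RXR peaks (3.42%, 2.26 to 4.93) scored under 50. Over all bands, 117 of 1261 such sites (9.28%) had an RXR peak under 50.

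Tag counts at the sites were low in both libraries. The TRα peaks held between 10 and 641 tags, with a median of 21 and quartiles of 16 and 28. Their TRβ partners held between 6 and 243 tags, with a median of 11 and quartiles of 8 and 15. The lowest count of a called peak was 10 tags for TRα and 6 for TRβ. Peaks of TRα alone held a median of 16 TRα tags. Sites of all 3 factors held medians of 39 TRα and 15 TRβ tags. Together the 265 sites took up 7421 TRα tags, 0.0375% of the unique tags of that library and 3.34% of the tags in TRα peaks. Where a site met several TRβ peaks, the one with the most tags was taken as its partner.

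Scaled to the unique tags of each library, TRβ tags were lower than TRα tags at most sites. The median log2 ratio of TRβ to TRα was -0.66 (-0.74 to -0.57), with quartiles of -1.17 and -0.27. Sites of all 3 factors had a median of -1.06 (-1.14 to -1.03). Tags were counted over TRβ peaks with a median width of 206 bp and TRα peaks with a median of 535 bp, so the ratio does not compare equal windows. The counting interval of the ratio lay below 0 at 73 sites, held 0 at 190 and lay above 0 at 2. These counts depend on tag depth and were not made for sites of all 3 factors, which held more tags. They are therefore not read as particular to the sites without RXR. At these depths TRα and TRβ tags of most single sites could not be told apart.

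The difference in that ratio between sites with and without RXR was not resolved within bands of TRα score. In the lowest and second 20% of the TRα list the median log2 ratio was -0.63 and -0.55 without RXR, below the -0.43 and -0.29 with RXR. In the middle band the medians were -0.62 and -0.68, in the fourth -0.93 and -0.95, and in the highest -1.03 and -1.27. The intervals of the 2 medians overlapped in all 5 bands, as at -0.88 to -0.43 and -0.74 to -0.13 in the lowest and -1.58 to -0.11 and -1.33 to -1.20 in the highest. TRβ tags differed less between the 2 classes within a band of TRα score than over all sites. Their medians from the lowest to the highest band were 9, 11, 10, 11 and 15 without RXR and 11.5, 10, 12, 12 and 17 with RXR. Across the 265 sites, TRα and TRβ tags had a Spearman correlation of 0.46, and 0.42 over the 241 outside crowded bins, as a description across sites that share 2 libraries. It was 0.51 over the 1261 sites with RXR.

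**Figure D2:**
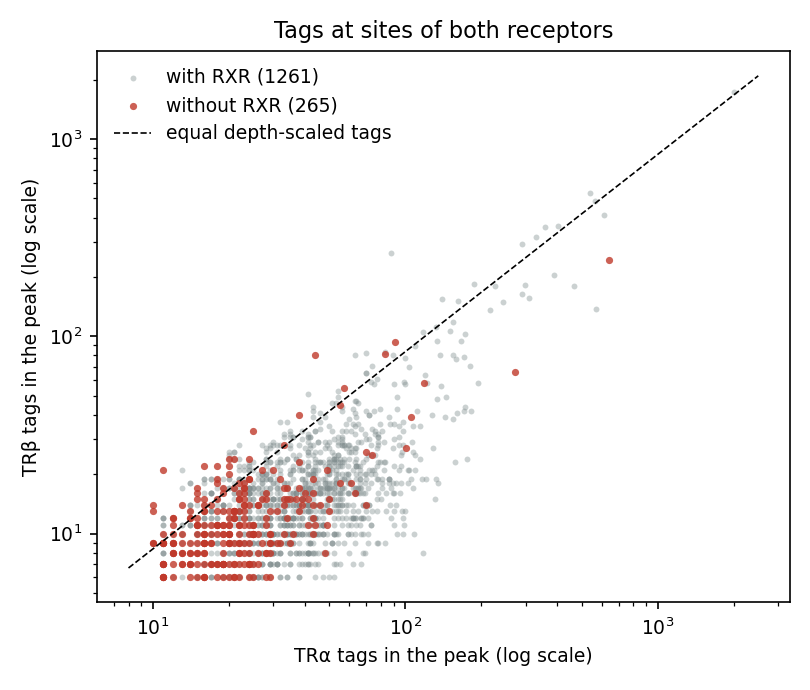
TRα tags (x axis) and TRβ tags (y axis) in the peaks of each site on log scales, for the 265 sites without RXR and the 1261 sites with RXR; the dashed line marks equal depth-scaled tags. Sites without RXR gather at lower counts, with medians of 21 TRα and 11 TRβ tags against 39 and 15 with RXR, and most lie under the line.

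Among the 10 sites with the best TRα score, 1 stood apart in size. The broad block at chr2:27355131-27358323 was 3193 bp wide and held 641 TRα tags with a score of 195.3, rank 266 of the TRα list. It met 3 TRβ peaks with 437 tags in all, the largest of them with 243, and the nearest RXR peak lay 151.3 kb away. Its folds were 4.79 for TRα and 6.22 for TRβ, under the medians of 7.52 and 11.2 over the 265 sites. Fold is the enrichment that the authors deposited, and the headers do not define it for calling without a control. It was thus the strongest of the sites by TRα tags and score but not by fold.

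The next sites were more compact and differed in how the receptors compared. At chr15:74753991-74754779 there were 70 TRα tags (fold 11.1) but 14 TRβ tags (fold 9.62), a log2 ratio of -2.06 (-3.01 to -1.22). At chr5:126321152-126321604 there were 38 TRα and 40 TRβ tags, with folds of 12.0 and 30.1. At chr7:27644941-27645612 there were 27 TRα and 21 TRβ tags, with folds of 19.8 and 58.2, the highest folds of both libraries among the 265 sites. The chromosome 15 site thus had more depth-scaled TRα than TRβ tags, though counted over peaks of 789 and 305 bp, and its folds were closer. At the other 2 the depth-scaled tags of the receptors differed by less than counting error.

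Further sites among the 10 best by TRα score lay at chr2:92853996-92854574 (34 TRα and 17 TRβ tags), chr11:97797145-97797663 (41 and 15), chr12:5623253-5623521 (18 and 19), chr19:56885026-56885664 (43 and 10), chr4:43058753-43059262 (33 and 14) and chr9:3030045-3030375 (83 and 81). Of these, the site on chromosome 11 had a TRβ score of 40.2, at the limit of the TRβ list, against a TRα score of 130.0. The site on chromosome 9 had scores of 142.9 and 321.5 and ranks of 3 and 2 among the 265, the lowest sum of both. An RXR peak of 197 tags lay 1357 bp beyond its edge. Strong TRα sites without RXR thus ranged from ones at the edge of the TRβ list to ones ranked 96 in it.

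Ranked among the 265 by TRα score and by TRβ score, 10 sites had the lowest sum of both ranks. Of these, 6 were also among the 10 best by TRα score, on chromosomes 2 (2 sites), 5, 7, 9 and 12. The other 4 were chr9:3037908-3038465 (91 TRα and 94 TRβ tags), chr9:3002855-3003129 (55 and 45), chr13:33769861-33770117 (16 and 13) and chr2:54778405-54778781 (19 and 11). Of these 4, the 2 on chromosome 9 lay 1174 and 705 bp from RXR peaks of 372 and 273 tags. Depth-scaled tags were within counting error of each other at 9 of the 10, the exception being the broad block on chromosome 2. A score of at least 100 in both lists was reached by 11 of the 265 sites, and a score under 50 in both lists by 49. Neither count was made for sites with RXR, so these counts are not read as particular to the sites without RXR.

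The ratio of the receptors ranged from 5.02-fold fewer TRβ than TRα tags, scaled for depth, to 2.28-fold more. The lowest were chr8:127449659-127450840, with 48 TRα and 8 TRβ tags, the chromosome 15 site above, and chr7:82572063-82572753, with 29 and 6. Next came chr5:53283804-53284550 with 28 and 6 tags and chr11:53610170-53611251 with 49 and 11. All 5 had intervals below 0 on the log2 scale, with TRβ counts of 6 to 14. At all 5 the TRα peak was wider than the TRβ peak, as at 1182 against 193 bp on chromosome 8. Their ratios therefore do not compare equal windows.

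The highest ratio belonged to chr1:85071626-85071983, with 11 TRα and 21 TRβ tags and a log2 ratio of 1.19 (0.07 to 2.39). At chr13:4558873-4559426 there were 44 TRα and 80 TRβ tags, a log2 ratio of 1.12 (0.57 to 1.68). This site had the best TRβ score of the 265, 473.7 (rank 52 of the TRβ list), against a TRα score of 61.3 (rank 2881). An RXR peak of 94 tags and a score of 278.2 lay 813 bp beyond its edge. These were the 2 sites whose intervals lay above 0. Intervals here and for the lowest ratios are for single sites and make no allowance for choosing extremes among 265. The chromosome 1 site lay in a crowded megabase, defined below. The third to the fifth, chr12:121234272-121234521 (10 and 14 tags), chr11:95673429-95673923 (16 and 22) and chr9:83988562-83989131 (25 and 33), had intervals that held 0.

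The receptors' summits lay close together at the sites, within a limit that the rule sets by asking for overlapping peaks. TRα and TRβ summits were a median of 45 bp apart (36 to 54), against 33 bp (30 to 36) at sites of all 3 factors. They were within 10 bp at 71 of 265 sites (26.8%, 21.6 to 32.6) and within 100 bp at 209 (78.9%, 73.5 to 83.6), against 24.3% and 88.2% (86.3 to 89.9) with RXR. The signed distance had a median of -1 bp, with the TRβ summit to the left at 135 sites, to the right at 123 and on the same base at 7. The TRβ peak lay wholly inside the TRα peak at 232 sites (87.5%, 83.0 to 91.3), against 94.9% with RXR (93.6 to 96.1). Summits over 100 bp apart were thus more frequent than at sites with RXR, although the largest distance was 1656 bp without and 2881 bp with RXR. TRα peaks without RXR had a median width of 535 bp against 671 bp and a median of 21 tags against 39. The part of either in the summit distances was not tested.

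A subset of narrow peaks, singled out after their values were seen, had the closest summits. TRα peaks at most 300 bp wide made up 16 of the 265 sites (6.04%, 3.49 to 9.62), 3.17% of sites of all 3 factors (2.28 to 4.29) and 2.09% of all autosomal TRα peaks. At 14 of the 16 the summits lay within 10 bp (87.5%, 61.7 to 98.4), against 57 of the 249 wider sites (22.9%, 17.8 to 28.6). Narrow peaks leave less room between summits, so this contrast is not independent of the width limit. The narrow sites held fewer TRα tags (median 11.5 against 21), with a higher TRα fold (10.8 against 7.38) and a higher TRβ fold (20.4 against 11.2). Their TRβ peaks were narrow too, with a median of 95.5 bp against 211 bp, and their median log2 ratio of TRβ to TRα was -0.03 against -0.74.

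Narrow peaks of this kind were also found at sites with RXR. Of the 40 narrow sites with all 3 factors, 37 had summits within 10 bp (92.5%), and their median log2 ratio was 0.02. Of the 144 narrow autosomal TRα peaks 56 met TRβ (38.9%, 30.9 to 47.4), against 21.8% of wider ones (20.8 to 22.8), and 56 met RXR (38.9%), against 47.2% (46.0 to 48.4). Examples without RXR were the chromosome 12 site above at 5623253, 269 bp wide with summits 1 bp apart and folds of 17.7 and 55.3, and the chromosome 13 site at 33769861, 257 bp wide with summits 1 bp apart and folds of 15.7 and 37.9. How many positions the tags of a narrow peak come from is not in the lists, and its part in these values was not tested.

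**Figure D3:**
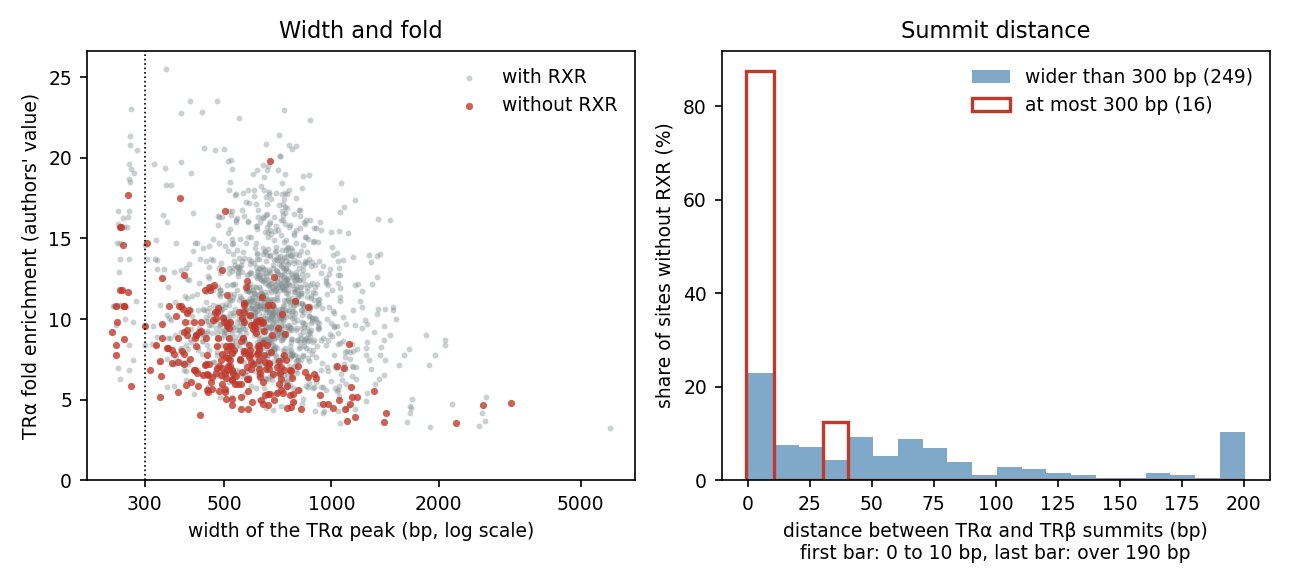
Left, width of the TRα peak (x axis, bp, log scale) against its fold enrichment (y axis) at sites with and without RXR, with a dotted line at 300 bp. Right, distance between TRα and TRβ summits (x axis, bp) as a share of the sites without RXR (y axis, %), for 16 narrow and 249 wider peaks; 87.5% of narrow and 22.9% of wider sites fall in the first bar.

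Most of the sites lay well away from RXR peaks, and more of them than of the peaks of TRα alone had RXR nearby. The gap to the nearest RXR peak had a median of 59.1 kb over the 265 sites and 96.4 kb over the 3392 peaks of TRα alone. An RXR peak lay within 10 kb of 54 sites (20.4%, 15.7 to 25.7) and of 305 peaks of TRα alone (8.99%, 8.05 to 10.0). It lay within 1 kb of 9 sites (3.40%, 1.56 to 6.35) and of 20 peaks of TRα alone (0.590%, 0.361 to 0.909). The 1 kb share was 7.75% with 500 bp windows around summits in place of the peaks and 6.90% with scores of at least 50 for both receptors. By the rule neither class shares a base with RXR.

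Crowded regions and peak strength moved with these distances. Outside crowded megabases, defined below, the shares within 10 kb were 16.2% (11.8 to 21.5) for the sites and 8.76% (7.82 to 9.77) for TRα alone. By 20% band of TRα score from the lowest to the highest, they were 12.5, 15.5, 16.0, 29.9 and 29.6% for the sites and 7.39, 8.72, 8.30, 14.99 and 20.8% for TRα alone. The sites were higher in each band, with intervals that overlapped in all but the fourth. In that band they were 19.3 to 42.3% and 11.4 to 19.2%. The median gap gave no such uniform order. It was 56.1, 43.6, 83.7, 29.4 and 65.7 kb for the sites and 121.1, 101.5, 90.7, 56.04 and 44.8 kb for TRα alone, so that in the highest band the sites lay farther away.

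**Figure D4:**
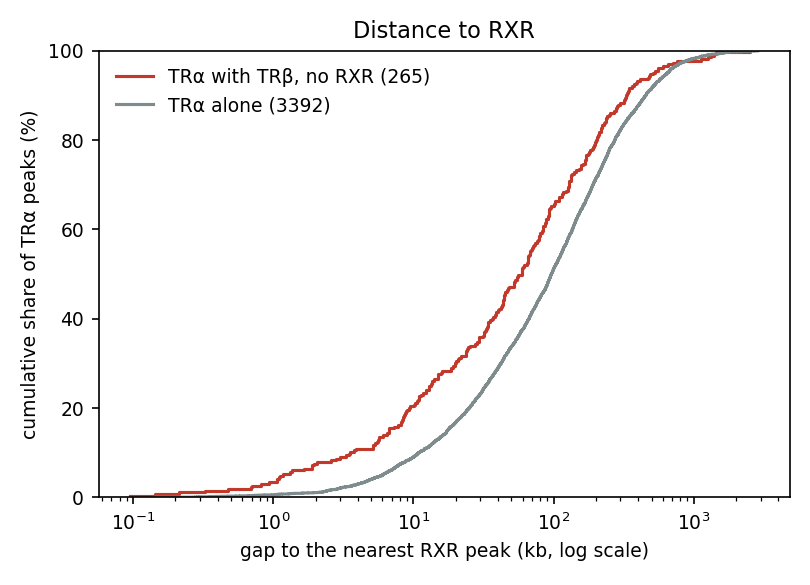
Cumulative share of TRα peaks (y axis, %) by the gap to the nearest RXR peak (x axis, kb, log scale), for the 265 sites with TRβ and the 3392 peaks of TRα alone, none of which share a base with RXR. The curve of the sites with TRβ lies to the left, with medians of 59.1 and 96.4 kb.

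At the edge of the rule, the site closest to RXR was chr18:90730949-90731197, 95 bp from an RXR peak, with 11 TRα and 9 TRβ tags. Next came chr4:53231755-53232886 at 142 bp, chr19:61300182-61300674 at 211 bp, chr9:115060492-115061810 at 328 bp and chr2:98175623-98176567 at 477 bp. Just outside, the TRα peaks of both receptors with the smallest RXR overlap were chr10:57693917-57694172 with 153 bp, chr15:4607544-4607788 with 245 bp and chr10:53548715-53548960 with 246 bp. The last 2 are overlaps over the whole width of the TRα peak. No TRα peak of all 3 factors thus touched RXR by only a few bases.

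The smallest overlaps with TRβ among the sites were 47 bp at chr16:47716238-47716651, 59 bp at chr12:32193645-32194201, 64 bp at chr8:19769760-19770217, 73 bp at chr19:22906909-22907417 and 81 bp at chr14:16251306-16251554. In the last of these the whole TRβ peak was 81 bp wide. TRα peaks without RXR that came nearest to TRβ without sharing a base lay 26 bp (chr11:87912169-87912723), 80 bp (chr14:22131783-22132500) and 85 bp (chr8:95370326-95370978) away. Membership was thus little affected by single bases at either edge, and asking for 50% of the narrower peak in place of 1 bp kept 261 of the 265 sites.

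The sites were spread over all 19 autosomes. Their share of the TRα peaks that met TRβ ran from 3 of 40 on chromosome 18 (7.50%, 1.57 to 20.4) to 22 of 94 on chromosome 7 (23.4%, 15.3 to 33.3). The intervals of all 19 chromosomes held the pooled 17.4%. They fell into 235 bins of 1 Mb, of which 217 held a single site.

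Few of the sites had another close by. Within 100 kb of another lay 36 of the 265 (13.6%, 9.70 to 18.3). The same share was 27.8% for sites of all 3 factors, 32.9% for TRα with RXR and 30.2% for TRα alone, classes of 1261, 1984 and 3392 peaks, so the shares are not at equal density. Crowded regions nonetheless took a larger part of these sites than of the other classes. Megabase bins in which any 1 list had 15 or more peaks, here called crowded, held 24 of the sites (9.06%, 5.89 to 13.2), against 2.27% of all autosomal TRα peaks, 3.81% of sites of all 3 factors (2.82 to 5.02) and 1.39% of peaks of TRα alone (1.02 to 1.84). A bin could be crowded by TRβ peaks alone, as with 12 TRα, 35 TRβ and 5 RXR peaks at 85 to 86 Mb of chromosome 1. The sites were chosen for meeting TRβ, so the contrast with all TRα peaks and TRα alone is not independent of the rule. Sites of all 3 factors meet TRβ as well. Without crowded bins the share within 100 kb of another was 5.81%, and with summits required within 100 bp it was 8.45%.

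The largest group was on chromosome 5, where 7 sites lay within 96860 bp, from 14933733 to 15030592. That span held 10 TRα, 23 TRβ and 4 RXR peaks. Its sites had 15 to 63 TRα and 9 to 17 TRβ tags. The best-scoring of them, chr5:14933733-14933992, held 15 TRα and 17 TRβ tags with folds of 14.6 and 31.3. In the 2 bins of 14 to 15 and 15 to 16 Mb, all 4 of 4 and 4 of 9 TRα peaks that met TRβ lacked RXR.

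On chromosome 1 from 85 to 86 Mb, 6 of the 8 TRα peaks that met TRβ lacked RXR, in a bin with 12 TRα, 35 TRβ and 5 RXR peaks. They held 11 to 70 TRα and 6 to 55 TRβ tags, with TRα folds of 3.70 to 8.46. On chromosome 8 from 19 to 20 Mb it was 5 of 15, in a bin with 17 TRα, 75 TRβ and 14 RXR peaks. On chromosome 9 from 3 to 4 Mb it was 3 of 13, and these 3 sites had 55 to 91 TRα and 45 to 94 TRβ tags with TRα folds of only 4.40 to 5.85. The 3 sites on chromosome 9 thus combined tag counts above the median of 21 TRα tags with folds under the median of 7.52, whereas those on chromosome 1 were mixed. Peaks were called without a control library, so binding sites of both receptors and regions that gather tags whatever is pulled down cannot be told apart.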

How the data were processed

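The 3 peak lists were used as deposited, 1 library each for TRα and TRβ (ChAP-seq) and RXR (ChIP-seq). CASAVA 1.7, Bowtie 0.12.7 and the build mm9 are named in the submitters' processing notes. MACS (no version stated) called peaks on each library without a control, per the file headers, using a p-value limit of 0.0001 and a modelled shift d of 139 bp for TRα, 56 bp for TRβ and 174 bp for RXR, which bears on peak widths. The tag count of a peak is not normalized, the score restates the p-value as minus 10 times its log10, and the fold enrichment is a ratio, all deposited by the authors. Score and fold were used only to describe, rank or filter peaks within a list.

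The RXR list counts starts from 0, as its lengths show, and 1 bp was added to them. Overlaps, gaps between peak edges and depth-scaled tags (per 1000000 unique tags) were computed in Python 3.11.15 (scipy 1.17.1, pandas 2.3.3, numpy 2.4.6), and plots were drawn with matplotlib 3.10.9. Overlap and gap functions were tested on simulated data. Intervals are exact 95% (Clopper-Pearson for shares, order statistics for medians, conditional binomial for ratios of counts), and no p-values were computed. Tags are not independent molecules.

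The members, measures and alternatives were chosen with earlier results of these data known. Sites named are the 10 best by TRα score, the 10 lowest by sum of TRα and TRβ score ranks among the members, the 5 nearest RXR, the 5 with the smallest TRβ overlap, the 5 highest and 5 lowest ratios, 3 peaks just outside each edge, and the largest group with gaps of at most 100 kb. The limits of 300 bp for narrow peaks and 15 peaks for crowded bins were set after values had been seen. Sequences, motifs, genes and distances to start sites were not analysed here, because no genome or annotation of mm9 was used here.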

Additional observations from a re-analysis of the deposited data

How the results depend on the processing

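For 7 results 70 alternative values were computed under 10 settings, of which 53 stayed within the interval of the first value (or within 1.5 times of a count), 17 left it and 0 reversed. A share has no sign, so reversal could occur only for the log2 ratio. With scores of at least 50 for both receptors there were 116 sites. The share of TRα and TRβ sites without RXR was then 11.1%, that of TRα peaks without RXR that met TRβ 9.84%, the median TRα percentile 64.9, the log2 ratio -0.51 and the share with RXR within 1 kb 6.90%. Raising the score by construction raises the percentile. With RXR scores of at least 50, the share without RXR was 25.03%, that of TRα peaks without RXR that met TRβ 8.89% and the percentile 54.6. With summits within 100 bp, TRα peaks without RXR met TRβ in 5.82% of cases, and 8.45% of sites had another within 100 kb. With all chromosomes these were 8.65% and 24.9%, and RXR lay within 1 kb of 6.46%. Without crowded bins 5.81% of sites had another within 100 kb. RXR lay within 1 kb of 7.75% with 500 bp windows and, by construction, of 0% where RXR within 1 kb was barred. Apart from the cases named as construction, the cause was not tested. Removing narrow TRα peaks, a setting added after seeing the data, moved none of the 7 results. The same sites recurred to differing degrees: 116 of the 265 with scores of at least 50, 213 with summits within 100 bp (any TRβ peak, against 209 for the partner with the most tags) and 263 with 500 bp windows. Sites under 10 TRα or 6 TRβ tags were not called at these depths. Alternatives for motifs were not run. No paired analysis was possible because the 3 libraries are unreplicated.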

Other observations

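Sites of both receptors without RXR were also present on the sex chromosomes, which the rule left out. On chromosome X, 46 of 146 TRα peaks that met TRβ lacked RXR (31.5%, 24.1 to 39.7), and on chromosome Y 14 of 59 (23.7%, 13.6 to 36.6). Together this was 60 of 205 (29.3%, 23.1 to 36.01), against 17.4% (15.5 to 19.4) on the autosomes. With all chromosomes counted, 24.9% of 325 sites had another within 100 kb, against 13.6% of the 265 autosomal ones. The intervals treat sites as independent and make no allowance for such clustering.

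Some narrow sites carried the same TRα values on different chromosomes. The sites chr13:33769861-33770117 and chr2:138978327-138978582 both had 16 TRα tags, a score of 110.8 and a fold of 15.7, with widths of 257 and 256 bp. The sites chr19:9767130-9767391 and chr4:17528708-17528970 both had 11 tags, a score of 57.8 and a fold of 10.8, with widths of 262 and 263 bp. Their TRβ tags were 13 and 7 in the former pair and 6 and 6 in the latter. These were the only 2 such pairs among the 265 sites, and they were named after their values were seen. Shared values were not particular to sites without RXR. The peaks chr15:4607544-4607788 and chr10:53548715-53548960, both with RXR, each had 11 TRα tags, a score of 65.9 and a fold of 10.8. The site chr12:27267879-27268127, without RXR, had the same 3 values.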
